A study of Mus musculus with 6 samples.

Results

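The Fos and Jun genes that make the transcription factor AP-1, together with Atf3, Egr1 and Ier3, were followed in colon RNA of control and HDAC1/2 deficient mice. These 10 genes were Fos, Fosb, Fosl1, Fosl2, Jun, Junb, Jund, Atf3, Egr1 and Ier3. They were taken by name, and every probe set whose only gene symbol was one of them was kept, which gave 14 of 45037 probe sets. All 10 genes were measured, 4 of them (Fosl1, Fosl2, Jun and Jund) by more than 1 probe set, among 18193 named genes on the array. The study compared colons of 3 control mice, labelled wild type, with colons of 3 mice whose floxed Hdac1 and Hdac2 alleles had been removed by villin-Cre. The villin promoter drives Cre in epithelial cells of the small intestine and colon, so the deletion was directed at these cells. The mice were 4 months old by the study's account of its arrays, received no treatment, and are numbered in the labels, 1 to an array. The values are log2 expression values, on which a difference of 1 means a 2-fold change.

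AP-1 is a dimer of basic leucine zipper proteins, in which a Jun protein pairs with a Fos protein, with another Jun protein or with an ATF protein. Egr1 is a zinc finger transcription factor that binds GC-rich sites, and Ier3 is a small stress-induced protein linked to cell survival. Growth factors, cytokines, stress and tissue handling act through MAP kinases and serum response factor to switch on most of these genes within minutes, before new protein has to be made. Jund differs in that it is transcribed at a steady level in many cells, and Fosl1 and Fosl2 usually follow Fos with a delay. In the gut epithelium, AP-1 and Egr1 are known for their part in proliferation and in wound and inflammatory responses.

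Several features of the whole data set bear on these values. Hdac1 was at 10.60, 10.53 and 10.56 on the control arrays and at 9.27, 9.21 and 9.32 on the deficient arrays (log2 fold change -1.30, limma adjusted p = 1.06e-06). None of the 3 Hdac2 probe sets passed the test (log2 fold changes from -0.07 to 0.05, limma adjusted p from 0.475 to 0.681), and whether they detect the deleted stretch of the gene was not settled. At the protein level, the study reported HDAC1 and HDAC2 depleted in isolated epithelial cells by Western blot. Its immunofluorescence still found HDAC2 in some crypts and villi. Arrays of the same group were very close, with correlations of 0.9984 to 0.9988 over probe sets, which are not independent of each other, and the median SD over 3 arrays was 0.0666 in control and 0.0632 in deficient colon. The Y-linked gene Eif2s3y averaged 4.09 ± 0.23 on control arrays and 8.34 ± 0.14 on deficient arrays (SD, n = 3 each). Xist, the RNA that silences an X chromosome in female cells, measured 12.88, 12.85 and 12.81 in control and was still at 12.01, 11.99 and 12.06 on the deficient arrays, with 97.5% of probe sets dimmer. Every deficient array therefore held Xist and Y-linked RNA together, which goes against RNA of a single mouse on each, as labelled, and whether arrays shared RNA of several mice was not tested. If they did, the p-values measure a spread between arrays that may be technical. The labels give no sex, and an effect of sex cannot be told apart from one of the genotype. By the labels the RNA came from epithelium, and markers of colon epithelium had control means from 10.92 for Cdx2 to 14.70 for Krt8. The study's methods give total colon RNA, and smooth muscle RNA was present as well, with the smooth muscle actin gene Acta2 at a mean of 14.23 in control colon. These 3 markers were named after their values had been seen. In such mixed tissue, fewer cells of a type and less RNA per cell cannot be told apart.

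To show the DNA from which members that moved in opposite directions are transcribed, the 250 bases before the RefSeq start (build GRCm38.p6) are given 5′ to 3′ for Jun and Fosl2, which fell, and for Ier3 and Fos, which rose. Capitals mark matches to the motifs searched, on either strand. The windows lie at chr4:95052223-95052472 on the minus strand for Jun, chr5:32136222-32136471 on the plus strand for Fosl2, chr17:35821463-35821712 on the plus strand for Ier3 and chr12:85473640-85473889 on the plus strand for Fos.
Jun: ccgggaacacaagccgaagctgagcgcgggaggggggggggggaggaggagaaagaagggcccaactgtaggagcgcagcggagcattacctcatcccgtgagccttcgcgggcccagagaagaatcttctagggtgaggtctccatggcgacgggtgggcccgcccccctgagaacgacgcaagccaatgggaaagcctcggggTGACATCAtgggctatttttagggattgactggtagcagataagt
Fosl2: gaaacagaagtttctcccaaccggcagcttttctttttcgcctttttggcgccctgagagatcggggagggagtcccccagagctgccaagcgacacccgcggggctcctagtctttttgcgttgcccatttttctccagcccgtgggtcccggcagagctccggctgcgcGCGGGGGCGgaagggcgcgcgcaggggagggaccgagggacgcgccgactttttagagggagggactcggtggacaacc
Ier3: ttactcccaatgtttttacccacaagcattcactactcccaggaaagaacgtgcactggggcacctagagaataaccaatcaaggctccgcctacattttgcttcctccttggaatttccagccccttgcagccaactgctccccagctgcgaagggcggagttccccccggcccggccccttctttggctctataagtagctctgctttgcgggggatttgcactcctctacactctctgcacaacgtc
Fos: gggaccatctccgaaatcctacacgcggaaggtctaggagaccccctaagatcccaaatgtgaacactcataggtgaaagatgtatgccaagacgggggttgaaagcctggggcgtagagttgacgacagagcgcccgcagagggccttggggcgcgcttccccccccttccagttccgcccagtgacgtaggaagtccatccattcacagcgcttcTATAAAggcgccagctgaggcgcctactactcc

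The motifs were TGACNTCA and TGANTCA, which are forms of the sites bound by ATF and AP-1 dimers, GCGNGGGCG, a site of Egr proteins, the CArG box of serum response factor, and TATAAA. Both strands were searched, and no window of a member held more than 1 of these motifs. Sites more than 250 bases before a start lie outside the windows and could not be found. Of 32851 windows of the same length before all RefSeq starts, 7.49% held TGACNTCA, 6.75% TGANTCA, 4.70% GCGNGGGCG, 1.47% a CArG box and 12.4% TATAAA. Jun held TGACATCA, a match to TGACNTCA on the strand of the gene, beginning 45 bases before its start. Fosl2 held GCGGGGGCG, 79 bases before its start, and Fosb, which did not pass the test, held the same letters 50 bases before its own. Fos held TATAAA at 33 bases. No letters matched in the windows of Ier3, Junb, Jund and Atf3. Windows of 8 of the 10 members were read, and those of Egr1 and Fosl1 were not. A match describes the letters of a window and is not evidence of binding.

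Of the 10 genes, each taken by its brightest probe set, 5 rose in HDAC1/2 deficient colon, 2 fell and 3 did not pass the test. Egr1, Ier3, Fosl1, Atf3 and Fos rose, Fosl2 and Jun fell, and Fosb, Junb and Jund did not pass. Among all 18193 genes, 50.4% passed, 21.9% with a rise and 28.4% with a fall. The members' 7 of 10 stand beside that background as a description, with no test of the difference. The 3 deficient arrays lay wholly above or below the 3 control arrays for 8 of the 10 members, against 60.9% of all genes. The median absolute log2 fold change was 0.33 over the members and 0.17 over all genes. Members were compared with limma, deficient against control, with Benjamini-Hochberg adjustment over all probe sets and a threshold of 0.05.

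**Figure D1:**
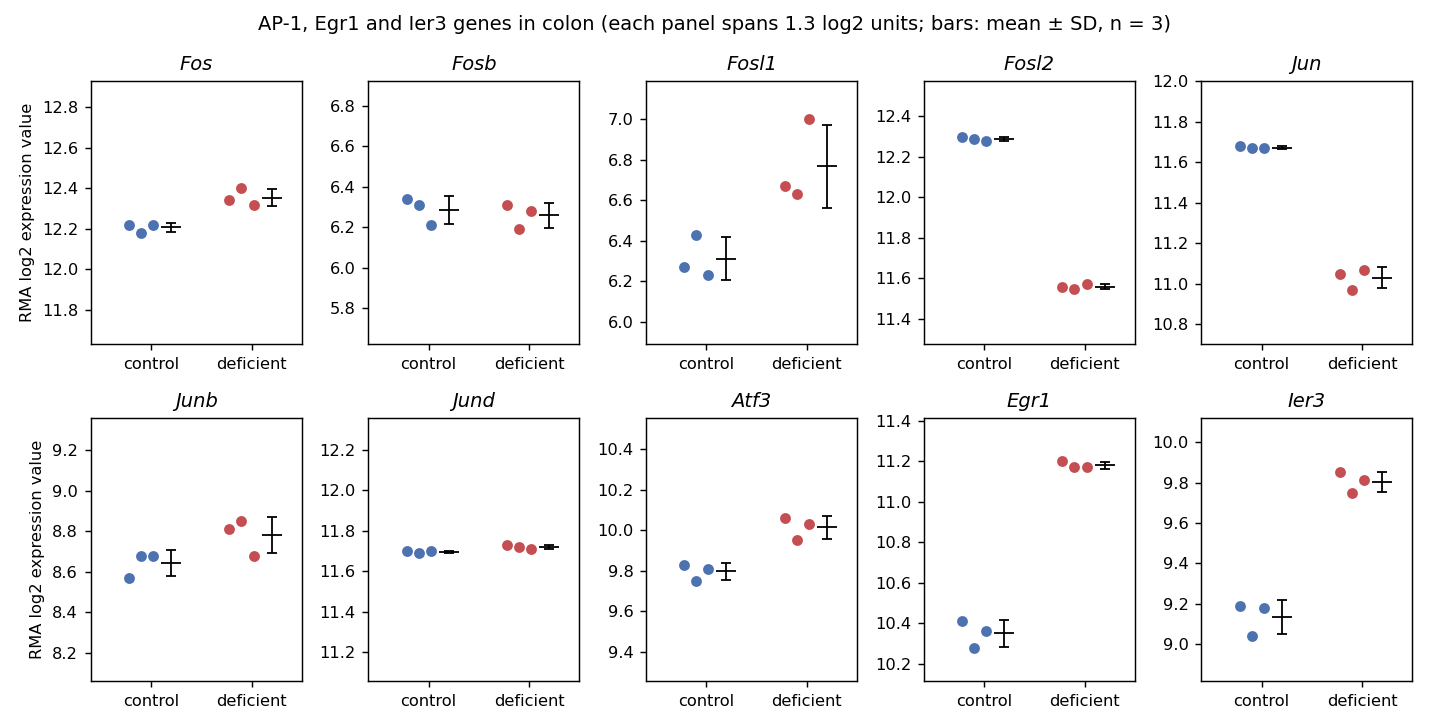
RMA log2 expression value (vertical axis) of the 10 genes on each array, for the brightest probe set of each gene. Blue points are the 3 control arrays, red points the 3 HDAC1/2 deficient arrays, and the black bars give the mean ± SD. All panels span the same range in log2 units, so the distances can be compared. Egr1 and Ier3 sit higher and Fosl2 and Jun lower on all deficient arrays, while the groups overlap for Fosb and Junb.

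Egr1 showed the largest rise of the members. It encodes the zinc finger factor named above, and its log2 values were 10.41, 10.28 and 10.36 on the control arrays and 11.20, 11.17 and 11.17 on the deficient arrays. Every deficient array lay above every control array, and the deficient arrays were almost level with one another. The log2 fold change was 0.83 (standard error, SE, 0.047, limma adjusted p = 8.61e-06), a 1.78-fold higher level, and 3.2% of all genes had a larger rise. Ier3 followed, at 9.19, 9.04 and 9.18 in control and 9.85, 9.75 and 9.81 in deficient colon. Its groups were also apart, with control replicate 2 the lowest of all arrays, as it was for Egr1. The log2 fold change of Ier3 was 0.67 (SE 0.055, limma adjusted p = 5.39e-05), a 1.59-fold higher level. Both rises passed under each of the 16 alternatives tried, with log2 fold changes of 0.79 to 0.86 for Egr1 and 0.62 to 0.70 for Ier3.

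The Egr family did not move as a whole. Egr2 rose from a mean of 5.82 to 6.56 (log2 fold change 0.74, limma adjusted p = 3.38e-04). Its probe set was dim, with 38.6% of all probe sets below it. In contrast, Egr3 (log2 fold change -0.05) and Egr4 (-0.10) did not pass, with limma adjusted p = 0.443 for both. Nab1 and Nab2 encode corepressors that bind Egr proteins and limit their activity. Nab1 rose by 0.24 and Nab2 by 0.35 on the log2 scale (limma adjusted p = 0.00169 and 0.0424). These 5 genes were picked for their tie to Egr1 after their values had been seen.

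Among the Jun genes, Jun fell while Junb and Jund did not pass the test. Jun, the founding partner of AP-1 dimers, measured 11.68, 11.67 and 11.67 in control and 11.05, 10.97 and 11.07 in deficient colon with its brightest probe set. The dimmer probe set of Jun measured 10.63, 10.55 and 10.54 in control and 9.70, 9.64 and 9.65 in deficient colon. Both probe sets placed all deficient arrays below all control arrays. Their log2 fold changes were -0.64 (SE 0.044, limma adjusted p = 2.30e-05) and -0.91 (SE 0.045, limma adjusted p = 4.69e-06), so the level was 0.642 and 0.533 times that of control colon. Of all genes, 6.01% had a lower log2 fold change than the brightest probe set of Jun.

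Junb, which encodes a weaker activator that can oppose Jun, measured 8.57, 8.68 and 8.68 in control and 8.81, 8.85 and 8.68 in deficient colon. Deficient replicate 3 was level with the higher control arrays, and the groups overlapped. The log2 fold change of 0.13 did not pass (95% interval -0.0041 to 0.27, limma adjusted p = 0.116). Jund, the steady member of the family, measured 11.70, 11.69 and 11.70 in control and 11.73, 11.72 and 11.71 in deficient colon. Its log2 fold change of 0.02 did not pass (95% interval -0.07 to 0.11, limma adjusted p = 0.69). A dimmer Jund probe set, which averaged 5.80 ± 0.076 on control arrays and 5.98 ± 0.042 on deficient arrays (SD, n = 3 each), did rise (log2 fold change 0.18, limma adjusted p = 0.0259). That call was lost without control replicate 1 or deficient replicate 1 or 2 (limma adjusted p from 0.0733 to 0.0761), and 33.1% of probe sets were dimmer than it.

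The Fos genes went in different directions. Fosl2, which encodes Fra-2, measured 12.30, 12.29 and 12.28 in control and 11.56, 11.55 and 11.57 in deficient colon with its brightest probe set. The arrays of each group lay within a few hundredths of a log2 unit of one another and the groups were far apart. The log2 fold change was -0.73 (SE 0.038, limma adjusted p = 5.38e-06), which is 0.602 times the control level. The second Fosl2 probe set was much dimmer, at 6.93, 7.14 and 7.15 in control and at 7.16, 7.23 and 7.16 in deficient colon, and it did not fall (log2 fold change 0.11, 95% interval -0.05 to 0.26, limma adjusted p = 0.247). The fall of Fosl2 therefore rests on 1 probe set, and the mean of both gave a log2 fold change of -0.31 (limma adjusted p = 3.04e-04). Where either probe set lies in the Fosl2 transcript is not known here.

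Fosl1, which encodes Fra-1, measured 6.27, 6.43 and 6.23 in control and 6.67, 6.63 and 7.00 in deficient colon. Deficient replicate 3 was the highest array, and the groups did not overlap. The log2 fold change was 0.46 (SE 0.103, limma adjusted p = 0.00944), and it did not pass the methods' t-test after Benjamini-Hochberg adjustment (adjusted p = 0.106). The dimmer Fosl1 probe set had a smaller log2 fold change of 0.17 (limma adjusted p = 0.0391), which did not pass without control replicate 1 or 2 or deficient replicate 1 or 3 (limma adjusted p from 0.0717 to 0.124). Both Fosl1 probe sets were dim, with 45.3% and 33.5% of all probe sets below them.

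Fos, whose protein pairs with Jun in the classical AP-1 dimer, measured 12.22, 12.18 and 12.22 in control and 12.34, 12.40 and 12.32 in deficient colon. All deficient arrays were above all control arrays, by a small distance. The log2 fold change was 0.15 (SE 0.043, limma adjusted p = 0.0283), a 1.11-fold higher level. The call was lost without any 1 of the control arrays or without deficient replicate 1 or 2 (limma adjusted p from 0.0553 to 0.0804) and kept without deficient replicate 3 (limma adjusted p = 0.0423). Of all genes, 23.6% had a higher log2 fold change than Fos. Fosb, the gene of another early Jun partner, at 6.34, 6.31 and 6.21 in control and 6.31, 6.19 and 6.28 in deficient colon, overlapped between the groups and did not pass (log2 fold change -0.03, 95% interval -0.16 to 0.10, limma adjusted p = 0.751). Atf3, a stress-induced ATF protein that pairs with Jun, measured 9.83, 9.75 and 9.81 in control and 10.06, 9.95 and 10.03 in deficient colon. Its groups were apart and it rose 1.16-fold (log2 fold change 0.21 with a standard error of 0.048, limma adjusted p = 0.00869).

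**Figure D2:**
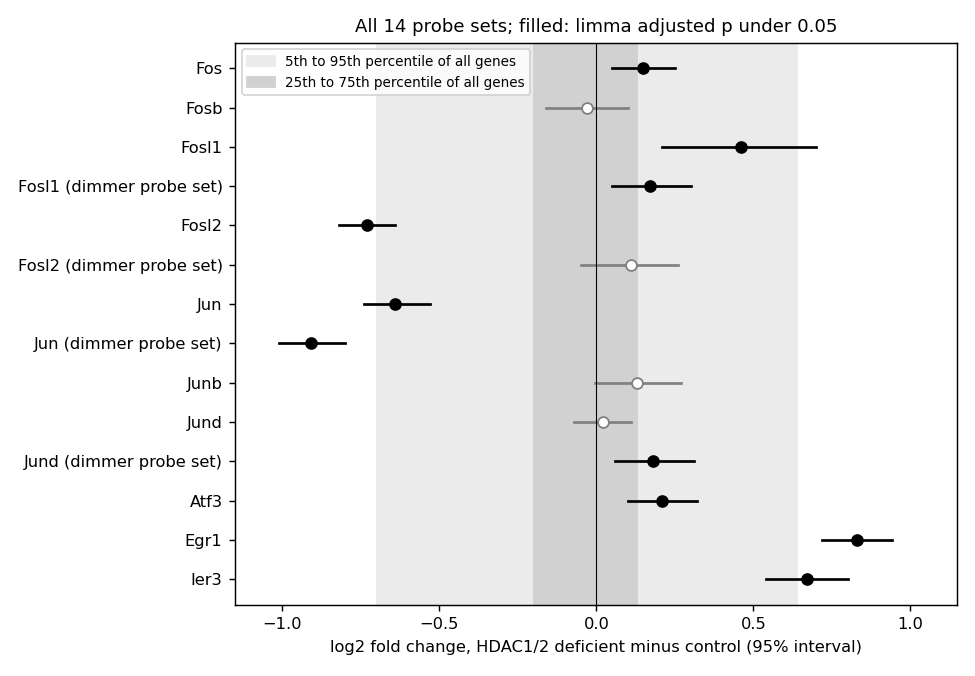
Log2 fold change (horizontal axis, HDAC1/2 deficient minus control) of all 14 probe sets with the 95% interval from limma. Filled black points passed at an adjusted p under 0.05 and open grey points did not. The shaded bands hold the middle of the distribution over all 18193 genes, whose 5th and 95th percentiles lie at -0.70 and 0.64. Only the brightest Fosl2, the dimmer Jun, the Egr1 and the Ier3 probe sets lie outside the wider band, and the dimmer Fosl2 probe set, which did not pass, lies on the other side of 0 from the brightest.

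Counted by probe set, 7 of the 14 rose, 3 fell and 4 did not pass, where 39.8% of all 45037 probe sets passed, 18.8% with a rise and 21.0% with a fall. The groups did not overlap in 12 of the 14 probe sets, against 50.0% of all probe sets. The number that rose was 4 without control replicate 1 or without deficient replicate 1, since the small rises of Fos and of the dimmer Fosl1 and Jund probe sets were lost, while the 3 falls passed whichever array was left out.

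Basic leucine zipper genes whose proteins pair or compete with AP-1 mostly rose where they changed. Of 20 listed, 17 were measured, of which 7 rose, 3 fell and 7 did not pass, with a median log2 fold change of 0.10 against -0.022 over all genes. By the same test 21.9% of all genes rose and 28.4% fell. That share is the background for this and every later list, and no list was tested against it. Atf5 (log2 fold change 0.75), Maf (0.73) and Jdp2 (0.73) rose the most. Jdp2 encodes a repressor of AP-1 that dimerizes with Jun, and it averaged 7.85 ± 0.022 on control arrays and 8.58 ± 0.12 on deficient arrays (SD, n = 3 each; limma adjusted p = 7.48e-05). Maf is a large Maf protein gene of lymphocytes and macrophages. The falls were in Atf2 (-0.48, limma adjusted p = 1.16e-04), which encodes a Jun partner activated by stress kinases, in Atf4 (-0.26) and in Atf6 (-0.22), which serve the stress response of the endoplasmic reticulum and of amino acid shortage.

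Genes of the MAP kinase cascades and of serum response factor cofactors went both ways. Of 34 listed, 27 were measured, of which 7 rose, 9 fell and 11 did not pass (median log2 fold change 0.01). The largest rises were in genes of the p38 branch, in Map2k3 from 11.30 ± 0.029 to 12.05 ± 0.053 (SD, n = 3 each; log2 fold change 0.75, limma adjusted p = 1.13e-05), in Mapk13 (0.65), which encodes p38 delta, and in Map2k6 (0.26). Map2k1, the gene of MEK1 in the ERK branch, fell by 0.47 on the log2 scale (limma adjusted p = 9.19e-05), and the receptor gene Egfr fell by 0.31. Mrtfb, an actin-regulated coactivator of serum response factor, fell the most, from 11.55 ± 0.019 to 10.89 ± 0.033 (SD, n = 3 each; log2 fold change -0.66, limma adjusted p = 1.33e-05). Srf itself was at 9.88 and 9.91 and did not pass (limma adjusted p = 0.587), a gene named after its value had been seen. With the mean of a gene's probe sets, or with the methods' t-test after adjustment, 5 and 4 genes of this list fell in place of 9.

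Of 18 feedback inhibitors, which shut off MAP kinases or Egr proteins, 10 rose, 4 fell and 4 did not pass (median log2 fold change 0.26). Dusp4, a phosphatase gene for nuclear MAP kinases, rose from 7.63 ± 0.052 to 8.61 ± 0.035 (SD, n = 3 each; log2 fold change 0.98, limma adjusted p = 3.48e-06). Spry4 (0.78), which restrains receptor signaling to Ras, and Dusp6 (0.57), the phosphatase gene for ERK, rose as well. Spred2 fell by 0.41, Dusp16, a phosphatase gene for JNK, by 0.37 and Spry1 by 0.26 on the log2 scale.

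Other immediate early genes went both ways. Of 36 measured, 11 rose, 12 fell and 13 did not pass (median log2 fold change -0.03), where 21.9% of all genes rose and 28.4% fell. Nfkbiz, which encodes an inducible nuclear partner of NF-kappaB, rose from 10.48 ± 0.048 to 12.00 ± 0.084 (SD, n = 3 each; log2 fold change 1.52, limma adjusted p = 1.17e-06). The kinase gene Sik1 (0.90) and the transcription factor gene Nfil3 (0.77) followed. Sgk1, a kinase gene that promotes sodium uptake, fell from 12.73 ± 0.021 to 11.89 ± 0.072 (SD, n = 3 each; log2 fold change -0.84, limma adjusted p = 9.75e-06), and the GTPase gene Rhob (-0.69) and the antiproliferative gene Btg2 (-0.64) fell too.

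Genes that are known targets of AP-1 or Egr1 mostly rose. Of 28 listed, 25 were measured, of which 20 rose, 3 fell and 2 did not pass, with a median log2 fold change of 0.59. Mmp13, a collagenase gene, rose from 6.16 ± 0.14 to 7.84 ± 0.12 (SD, n = 3 each; log2 fold change 1.68, limma adjusted p = 5.17e-06). Icam1, a leukocyte adhesion gene, rose by 1.67 and Ereg, an EGF receptor ligand gene, by 1.51 on the log2 scale. The tissue factor gene F3 (-0.49), the thrombospondin gene Thbs1 (-0.44) and the growth factor gene Pdgfa (-0.33) fell. Several of these genes, Icam1 among them, are also known targets of NF-kappaB.

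**Figure D3:**
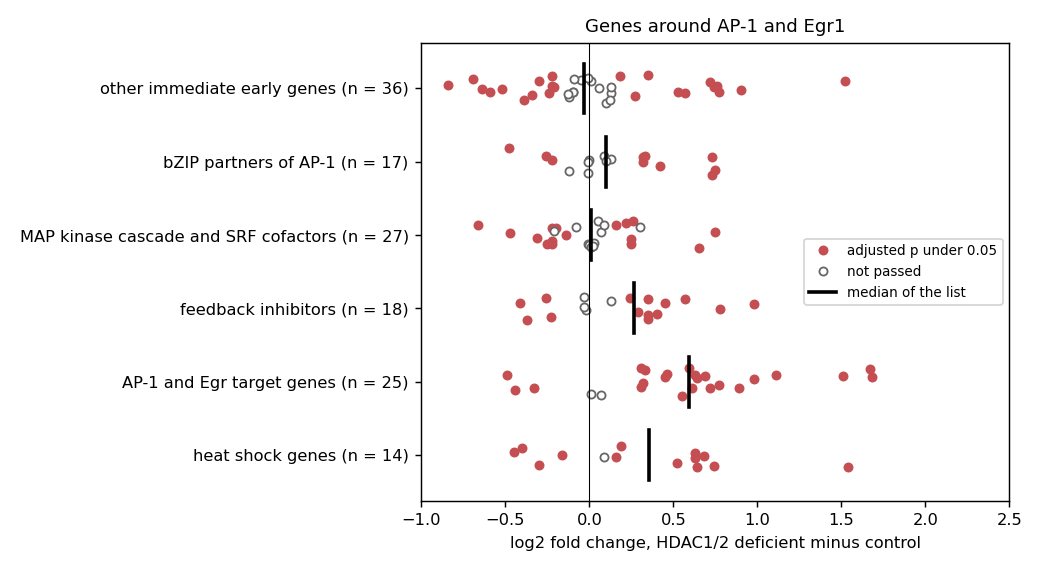
Log2 fold change (horizontal axis, HDAC1/2 deficient minus control) of single genes in 6 lists around AP-1 and Egr1. Genes that passed the test are red, the others are drawn as open circles, and a black line marks each list's median. The medians are 0.59 for target genes, 0.36 for heat shock genes and 0.26 for feedback inhibitors, and lie between -0.03 and 0.10 for the other lists.

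Genes of other cell types and of stress also differed between the groups. Of 14 heat shock genes, which respond to protein damage and to handling, 9 rose, 4 fell and 1 did not pass, with Hsph1 (log2 fold change 1.54), Hspe1 (0.74) and Dnaja1 (0.68) highest and Cryab (-0.45), Hspb8 (-0.40) and Hspb1 (-0.30) lowest. Their summed level, the log2 of the summed linear values, was 15.90 to 15.91 on the control arrays and 16.31 to 16.33 on the deficient arrays. All 8 smooth muscle markers fell, with a summed level of 16.05 to 16.06 in control and 15.67 to 15.73 in deficient colon. Of 6 endothelial markers 5 fell (10.18 to 10.27 against 9.93 to 10.06), and of 5 markers of enteric neurons and glia 3 fell (9.92 to 10.03 against 9.74 to 9.82). Fibroblast markers split, with 3 of 7 higher and 3 lower (14.61 to 14.63 against 14.54 to 14.56).

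Markers of immune cells were higher. All 8 macrophage markers rose (summed level 12.98 to 13.02 against 13.75 to 13.77), as did 6 of 6 of B and plasma cells (13.02 to 13.10 against 14.31 to 14.42), 5 of 6 of T cells (9.72 to 9.83 against 10.47 to 10.53) and 3 of 5 of neutrophils (8.32 to 8.43 against 10.69 to 10.74). The neutrophil sum was carried by S100a8 (5.87 to 10.07) and S100a9 (6.37 to 8.55), named after their values had been seen, while Csf3r rose by 0.47 on the log2 scale and Cxcr2 and Mmp8 did not pass. Of 11 colon epithelium markers 4 rose and 2 fell (17.25 on each control array against 17.35 to 17.36). All 5 pancreatic acinar markers rose (8.31 to 8.59 against 14.35 to 14.38) and 6 of 7 squamous markers fell (13.66 to 13.69 against 11.19 to 11.21). That squamous sum is mostly Tgm3 (13.36 to 10.43), named after its values had been seen. The median log2 fold change of the squamous list was -2.90. RMA values have no zero, so no marker can be called absent. Where control is only compared with deficient colon, each member that fell shares its direction with every list that fell. The same holds for rises, so a shared direction links no list to a member. The part of these cells and of stress in the members' values was not tested.

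**Figure D4:**
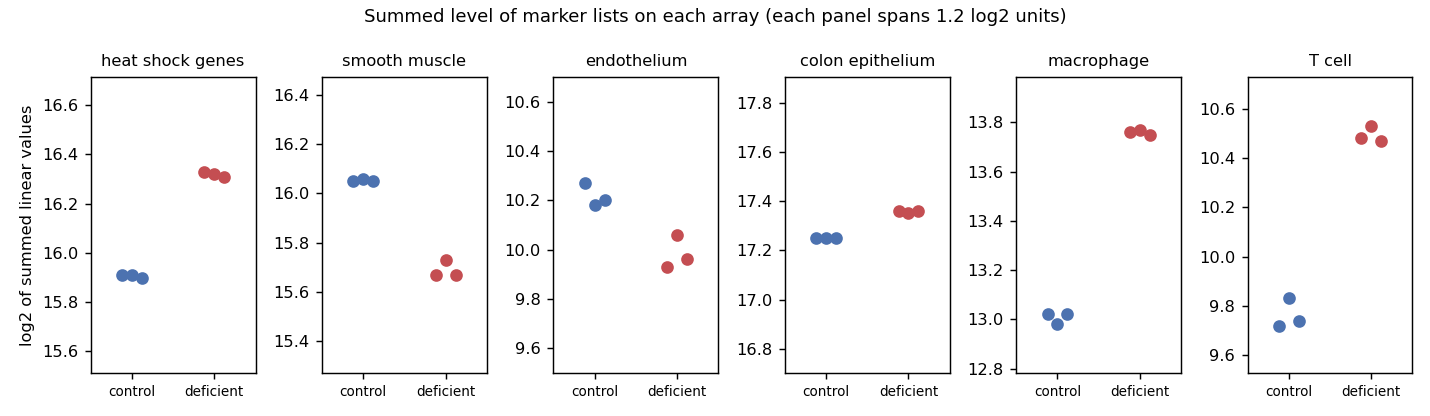
Summed level of 6 gene lists on each array (vertical axis, log2 of the summed linear values of the brightest probe sets). Blue points are the 3 control arrays and red points the 3 HDAC1/2 deficient arrays, and all panels span the same range in log2 units. Heat shock, epithelium, macrophage and T cell sums lie higher and smooth muscle and endothelium sums lower on all deficient arrays.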

How the data were processed

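Total colon RNA was hybridized to 6 Affymetrix mouse genome arrays, 1 per mouse by the labels. The authors background-corrected and normalized the arrays by RMA, which the submitters' processing notes name too, and deposited log2 expression values per probe set. Of 45101 probe sets in the deposited table, 64 were the array's own controls and were dropped.

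Groups came from the sample titles. The remaining 45037 probe sets entered 1 linear model without covariates (limma 3.58.1, R 4.3.3), moderated by eBayes, with Benjamini-Hochberg adjustment across the whole table. Symbols came from the platform annotation, in which 34945 probe sets have 1 symbol, 932 several and 9160 none, and only the first kind was named. Of several probe sets, the brightest over the 6 arrays stands for a gene. Intervals are at 95%. Named genes are all members and, of each list, the 3 largest rises and the 3 largest falls that passed without overlap, and others are said to be chosen after their values were seen. Members and lists were chosen with earlier results of these data known. Depth has no meaning for arrays, whose number limits the precision. p-values measure the spread between 3 arrays per group, which may be technical, since Xist and a Y-linked gene were both present on each deficient array. The scripts were tested on simulated data. Promoter letters are RefSeq's, matched by symbol for 8 of 10 members. No batch is given in the sources used here. Python 3.11.15 and matplotlib 3.10.9 were used.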

Additional observations from a re-analysis of the deposited data

How the results depend on the processing

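Results were recomputed with the methods' t-test, adjusted or not, quantile normalization again, centring on the array median, a filter at the 40th percentile, trend and robust eBayes, array weights, no probe sets of shared sequence, the replicate block, the mean of a gene's probe sets, and each array left out. Over 218 values of the 10 genes and the 4 dimmer probe sets, 196 kept their side of the threshold, 20 lost the call and 2 gained it. Where the main fit or the alternative passed, 0 reversed in direction. Values that passed in neither could change sign, as Fosb did from -0.03 to 0.01 without deficient replicate 2. Jund went from 0.02 to -0.01 with quantile normalization again. The gains were of Jund, at 0.10 with the mean of its probe sets (limma adjusted p = 0.042) and at 0.02 with the methods' unadjusted t-test. With each array left out, 4 to 5 members rose and 2 fell, 4 to 6 member probe sets rose, and 6 to 9 MAP kinase genes fell. The 4 member probe sets came without control replicate 1 and without deficient replicate 1. With the methods' t-test after adjustment, 4 member probe sets rose and 4 MAP kinase genes fell. With the mean of a gene's probe sets, 5 MAP kinase genes fell. The cause was not tested. Whether the replicate number marks a pairing was not settled. Deviations of arrays with the same number correlated at 0.096, 0.064 and -0.026, and those with different numbers at -0.103 to 0.03. With the replicate block 4 members rose (Fos at 0.15, limma adjusted p = 0.0663) and 2 fell. Over all genes, 3835 rose and 4950 fell with the block, against 3990 and 5172 without it. Not every array correlated best with its own number. Dim probe sets limit what can be seen of Fosb and Fosl1.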

Other observations

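Within the groups, Egr1, Ier3, Atf3 and Fos had the same lowest control array, control replicate 2, which lay below its group mean by 0.071, 0.096, 0.045 and 0.028 on the log2 scale. Control replicate 2 was also the lowest control array for Jund, with a deviation of -0.002. For Fosl1, which rose too, it was the highest control array, with a deviation of 0.121. Deficient replicate 2 was the lowest deficient array for 7 of the 10 members, by 0.134 below the group mean for Fosl1 and by as little as 0.007 for Fosl2, and the highest for Fos and Junb. Fos deviated from its group means by at most 0.046 on any array. Among 12286 genes above the median signal, those whose deviations from the group means were most like those of Fos were Snapc2, Gtf2b, Pi4k2a, Git2 and Stk25 (r from 0.997 to 1.000 over 6 arrays that share 2 group means), and no member was among them. The member closest to Fos was Jund, at r = 0.50 and rank 3974. With 6 deviations these values are a description of the arrays.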
